A study of Danio rerio with 6 samples.

Results

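The genes described here encode the ion pumps that spend ATP to move sodium, calcium or protons across membranes. They were picked by symbol alone, by a rule set with earlier results of these data known. It took every gene whose symbol starts with atp1a or atp1b, fxyd, atp2a, atp2b or atp2c, atp4, atp6v or atp6ap. On the array 39 of 8781 named genes met this rule, of which 16 belong to the sodium pump, 8 to the calcium pumps and 15 to the vacuolar proton pump. The reference annotation lists no protein-coding gene of the gastric-type potassium proton pump (atp4), and none was among the named probe sets. It lists the Golgi calcium pump gene atp2c1, which had no named probe set. A gene with several probe sets was represented by the one with the highest mean over all arrays, which mattered for 8 of the 39 genes.

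The study profiled renal collecting ducts of adult zebrafish on Affymetrix expression arrays. All fish carried the Tg(jam1a:EGFP) transgene, in which the jam1a promoter drives a green fluorescent protein, and the glowing ducts were picked out under a fluorescence microscope. The 3 groups were ducts of unirradiated fish, ducts of fish that had received 25 Gy of X-rays, and whole kidney, with 2 arrays in each group. Each array held RNA of an independent pool of 5 fish, so no value belongs to a single animal, and the sources used here state no sex, no age in months and no time between irradiation and collection.

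The sodium pump exchanges sodium for potassium across the plasma membrane. Its catalytic alpha subunit hydrolyses ATP, its beta subunit brings alpha to the cell surface, and small FXYD proteins tune its activity. In the vertebrate kidney this pump, in the basolateral membrane of the tubule cells, supplies the gradient that salt reabsorption uses. Calcium pumps are single-chain relatives of alpha, in the endoplasmic reticulum (SERCA, encoded by atp2a genes) or in the plasma membrane (PMCA, encoded by atp2b genes). The vacuolar proton pump is a large rotary machine: its V1 sector hydrolyses ATP and its V0 sector carries protons through the membrane. It acidifies lysosomes in nearly every cell, and the acid-secreting cells of mammalian collecting ducts also carry it in the plasma membrane.

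All values are log2 values after robust multi-array averaging (RMA), and the median of an array lay between 5.81 and 5.87. A value under that median is not shown to be above background, and this was so in all 3 groups for 10 of the 39 genes (4 of the sodium pump, 4 calcium pumps and 2 of the proton pump). Levels of a gene are compared between groups for 1 probe set, never between probe sets. Sums and medians over a marker list are likewise compared between groups only. A sum is weighted towards the brightest probe sets of its list. Markers were read beside the label of the ducts. Their lists were chosen with earlier results of these data known, so they are no independent check of the label. Of 18 measured duct and distal tubule markers, 8 passed the test as higher in the unirradiated ducts and none as lower than in whole kidney, among them gata3, which encodes a transcription factor of the duct lineage, with a log2 fold change of 2.96 ± 0.26 (SE, n = 2 against 2). Of 8 proximal tubule markers, 3 were lower. Over all probe sets 4.27% were higher and 2.99% lower in this comparison. The array's EGFP probe set read between 6.05 and 6.49 on all 6 arrays. In such bulk samples, fewer cells of a type and less RNA per cell cannot be told apart. The mean of the 9 hybridisation control probe sets ran from 8.48 to 11.15. It differed within a group too, at 8.48 and 10.24 on the 2 whole kidney arrays, so centring on these controls is itself uncertain. The 3′ minus 5′ difference of GAPDH ran from 0.55 to 2.52, highest in unirradiated duct replicate 2.

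The first question was how pump genes in collecting ducts compare with those in the whole organ. In unirradiated ducts 3 of the 39 genes were higher than in whole kidney: the sodium pump catalytic gene atp1a1a.3, the sodium pump regulator fxyd3 and the muscle-type calcium pump gene atp2a1, whose values were all under the array medians. The proton pump V1 subunit genes atp6v1e1b and atp6v1h were lower. The test was limma over all 15502 probe sets with an adjusted p under 0.05, by which 4.27% of the probe sets were higher and 2.99% lower. The remaining 34 genes did not pass.

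By subgroup, the median log2 fold change in unirradiated ducts against whole kidney was 0.35 for the 16 sodium pump genes, 0.46 for the 8 calcium pump genes and -0.50 for the 15 proton pump genes, beside 0.01 for all probe sets tested. Among genes with a mean log2 value of at least 6 the medians were 0.85 over 11 sodium pump genes and 0.0847 over 3 calcium pump genes. Over 13 proton pump genes it was -0.53, and over all probe sets with such a mean it was -0.10. Without whole kidney replicate 2 the calcium pump median was 0.75. Of the sodium pump genes 12 had a positive difference, as did 7 of the calcium pump genes and 3 of the proton pump genes. Both duct arrays lay above both kidney arrays for 10 of the 16 sodium pump genes, 6 of the 8 calcium pump genes and 2 of the 15 proton pump genes. They lay below both kidney arrays for 1, 1 and 10 genes of the same subgroups. Among all probe sets tested, 28.9% were wholly above and 27.7% wholly below. Of the calcium pump genes wholly above, atp2a1, atp2a2a, atp2b2 and atp2b3a were under the array medians in all 3 groups. So were atp1b1b and atp1b2b of the sodium pump and atp6ap1la of the proton pump. These values are not shown to be above background. The values of the pump genes on each array show the sodium and proton pump subgroups leaning in opposite directions, with single genes far from their subgroup's median.

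**Figure D1:**
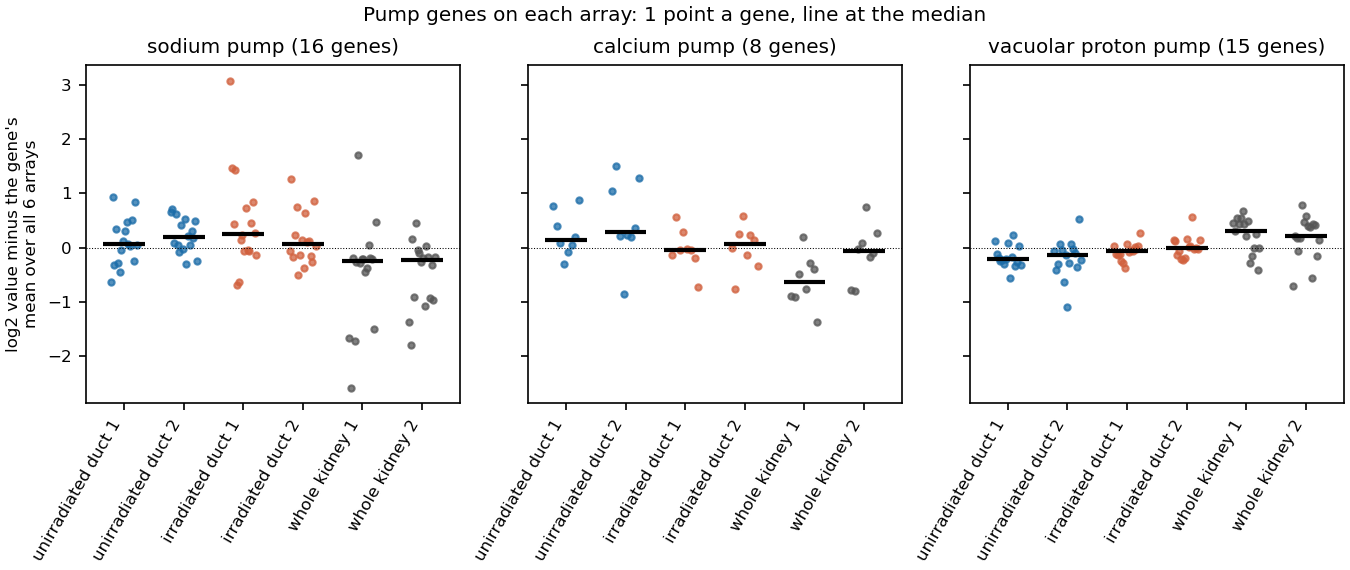
Log2 value of each pump gene on each array minus that gene's own mean over all 6 arrays, in 3 panels for the sodium pump (16 genes), calcium pumps (8 genes) and vacuolar proton pump (15 genes); each point is 1 gene and the line is the median of the subgroup on that array. The proton pump medians are highest on the whole kidney arrays, while the sodium pump medians are lowest there.

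These directions are relative to the typical probe set, since RMA sets the distributions of the arrays equal. Centring each array on its hybridisation controls instead lowered every log2 fold change of this comparison by 1.55, and the subgroup medians became -1.20, -1.09 and -2.05. The 3 higher and 2 lower calls then became 0 higher and 5 lower, while the share of all probe sets that passed went from 7.26% to 12.5%. With only ducts and kidney in the fit, which is also the fit without either irradiated array, 3 pump genes passed by limma. In that fit 2.72% of all probe sets passed. Without 1 unirradiated duct or kidney array a group holds 1 pool, so nothing is read from the count of calls there.

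Sodium pump catalytic subunits gave both the highest and the lowest duct to kidney difference within that subgroup. The zebrafish genome holds a tandem cluster of atp1a1a genes on chromosome 1, in the order atp1a1a.4, atp1a1a.1, atp1a1a.2, atp1a1a.3 and atp1a1a.5, with no protein-coding gene between them in the reference annotation. In zebrafish skin, different copies of this cluster are used by different types of ionocyte. Of the 5 copies, all but atp1a1a.1 had a named probe set, and whether their probes also bind transcripts of a neighbouring copy was not tested.

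The atp1a1a.3 probe set read 13.07 and 12.86 in unirradiated ducts, 13.62 and 13.41 in irradiated ducts, and 9.57 and 10.36 in whole kidney. All 4 duct arrays lay above both kidney arrays by more than 2 log2 units. The difference of unirradiated ducts from kidney was 3.01 ± 0.29 (SE, n = 2 against 2), which is 8.04-fold, with a limma adjusted p of 0.008. It kept its direction when arrays were centred on the hybridisation controls, at 1.46 with an adjusted p of 0.128. Without unirradiated duct replicate 1 the difference was 2.90, and without replicate 2 it was 3.11. Each of these fits leaves 1 pool in the group, so only the size of the difference is given.

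Its neighbour atp1a1a.5 read 8.93 and 9.23 in unirradiated ducts, 10.03 and 8.83 in irradiated ducts, and 6.88 and 7.69 in whole kidney. Again no duct array overlapped the kidney arrays. The unirradiated difference of 1.80 ± 0.46 (SE) had an adjusted p of 0.0734. The values of atp1a1a.2 were 6.28 and 7.57 in unirradiated ducts, 10.00 and 6.84 in irradiated ducts, and 5.24 and 5.54 in whole kidney, where both were under the array medians. Its 2 irradiated pools differed by more than any other pair of replicates among the pump genes, and the unirradiated difference from kidney was 1.53 ± 1.01 (SE, adjusted p 0.382).

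The fourth measured copy, atp1a1a.4, was bright in every group, with 11.84 and 12.23 in unirradiated ducts, 12.60 and 11.98 in irradiated ducts, and 11.96 and 12.32 in whole kidney. The groups overlapped, and the difference of unirradiated ducts from kidney was -0.10 ± 0.28 (SE, adjusted p 0.839). Within the cluster, then, the differences from kidney ran from -0.10 to 3.01, and the difference between copies was not tested. The alpha gene outside the cluster, atp1a1b, also overlapped between groups, at 7.32 and 7.65 in unirradiated ducts and 7.34 and 8.06 in whole kidney.

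In mammals the alpha 3 isoform is best known from neurons. The zebrafish atp1a3a probe set read 4.67 and 5.05 in unirradiated ducts, 4.49 and 4.62 in irradiated ducts, and 6.84 and 5.08 in whole kidney. Only kidney replicate 1 exceeded the array median, and the difference of -1.10 ± 0.55 (SE) had an adjusted p of 0.264. Of 12 measured neuron and glia markers, 2 were higher in unirradiated ducts than in kidney and none lower. Over all probe sets 4.27% were higher and 2.99% lower. The second copy, atp1a3b, had a difference of 0.38 ± 0.22 (SE, adjusted p 0.327).

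None of the 6 beta subunit genes passed in unirradiated ducts against kidney, with log2 fold changes from 0.10 to 0.97, all positive. The gene atp1b1a encodes a copy of beta 1, the usual partner of alpha 1 in mammalian kidney. It read 12.78 and 12.64 in unirradiated ducts, 12.91 and 12.80 in irradiated ducts, and 12.46 and 12.40 in whole kidney. Both kidney arrays were lower than every duct array, by a small margin, and the unirradiated difference was 0.28 ± 0.15 (SE, adjusted p 0.301).

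The largest beta subunit differences were those of atp1b3b and atp1b2a. For atp1b3b the arrays gave 8.52 and 8.32 in unirradiated ducts, 8.46 and 7.85 in irradiated ducts, and 7.81 and 7.08 in whole kidney, a difference of 0.97 ± 0.32 (SE, adjusted p 0.125). For atp1b2a, whose mammalian counterpart is the beta 2 subunit first described as an adhesion molecule of glia, they gave 7.57 and 6.78 in unirradiated ducts, 7.82 and 7.72 in irradiated ducts, and 6.64 and 6.01 in whole kidney. Its unirradiated difference from kidney was 0.85 ± 0.33 (SE, adjusted p 0.172). Duct and kidney arrays did not overlap for either gene. The genes atp1b1b, atp1b2b and atp1b3a stayed under the array medians in all groups.

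FXYD proteins are single-span membrane proteins that bind the alpha and beta complex. The gene fxyd3 read 9.54 and 9.18 in unirradiated ducts, 8.96 and 9.56 in irradiated ducts, and 7.19 and 7.72 in whole kidney. The ducts of both kinds overlapped each other and stood above the kidney arrays. Unirradiated ducts were higher than kidney by 1.90 ± 0.29 (SE, n = 2 against 2), a 3.73-fold difference with a limma adjusted p of 0.024, which became 0.35 with an adjusted p of 0.688 when arrays were centred on the hybridisation controls. In contrast fxyd6l gave 8.56 and 8.24 in unirradiated ducts and 8.97 and 8.33 in whole kidney, with overlapping groups and a difference of -0.25 ± 0.26 (SE, adjusted p 0.578). The third, fxyd11, known from fish gills, was under the array medians throughout.

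**Figure D2:**
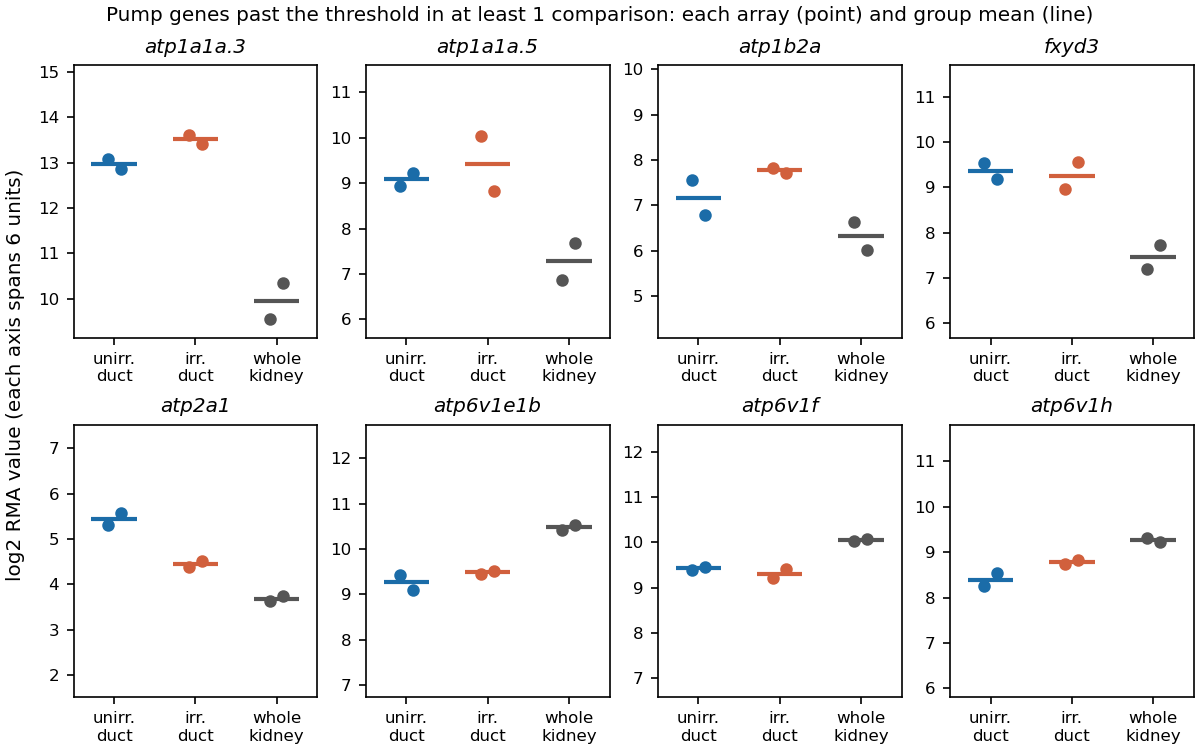
Log2 RMA value on each array (point) and group mean (line) for the 8 pump genes past the threshold in at least 1 comparison, each axis spanning 6 log2 units, in unirradiated ducts, irradiated ducts and whole kidney (2 arrays each). Duct arrays lie above kidney arrays for atp1a1a.3, atp1a1a.5, atp1b2a, fxyd3 and atp2a1, and below them for atp6v1e1b, atp6v1f and atp6v1h.

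Genes that work beside the sodium pump passed at about the share of all probe sets, of which 4.27% were higher and 2.99% lower in unirradiated ducts. Of 17 measured sodium and potassium transport partners, 1 was higher in unirradiated ducts than in kidney and none was lower, with a median log2 fold change of -0.09. The one that passed was slc4a2a, which encodes a chloride bicarbonate exchanger, at 1.29 ± 0.17 (SE, adjusted p 0.0178). In irradiated ducts slc4a2a passed again at 1.36, and clcnk, the basolateral chloride channel gene of distal tubule cells, was higher than in kidney by 1.44 ± 0.24 (SE, adjusted p 0.0209).

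Proton pump genes lay mostly on the other side. Of the 9 V1 genes 8 had negative differences in unirradiated ducts against kidney, with a median of -0.61. On both duct arrays 7 of them were lower than on both kidney arrays, as were 27.7% of all probe sets tested. Only atp6v1e1b and atp6v1h passed the test. The 3 V0 genes had a median of -0.10 and the 3 accessory genes one of -0.34, and none of these 6 passed. Whether the V1 and V0 sectors differ from each other was not tested.

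The E subunit, encoded by atp6v1e1b, is part of the peripheral stalk that holds the V1 head in place. Its probe set read 9.43 and 9.11 in unirradiated ducts, 9.45 and 9.51 in irradiated ducts, and 10.42 and 10.53 in whole kidney. Both kidney arrays stood well above all 4 duct arrays. The gene was 2.31-fold lower in unirradiated ducts, with a log2 fold change of -1.21 ± 0.18 (SE, n = 2 against 2) and a limma adjusted p of 0.0208. With only ducts and kidney in the fit, the adjusted p was 0.0624.

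The H subunit, encoded by atp6v1h, regulates the joining of V1 and V0. It read 8.26 and 8.53 in unirradiated ducts, 8.73 and 8.82 in irradiated ducts, and 9.31 and 9.22 in whole kidney. The 3 groups did not overlap, and irradiated ducts lay between the others. The unirradiated difference from kidney was -0.87 ± 0.17 (SE), which is 1.83-fold lower, with an adjusted p of 0.0403. That call was lost under several settings, with an adjusted p of 0.0993 with only ducts and kidney in the fit and 0.0551 without whole kidney replicate 1.

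For atp6v1f, which encodes a central stalk subunit, the arrays gave 9.39 and 9.46 in unirradiated ducts, 9.21 and 9.41 in irradiated ducts, and 10.04 and 10.07 in whole kidney. Duct and kidney arrays were clearly apart, while the unirradiated difference of -0.63 ± 0.16 (SE) had an adjusted p of 0.0703. The G subunit gene atp6v1g1 read 9.95 and 8.77 in unirradiated ducts, 9.95 and 10.04 in irradiated ducts, and 10.08 and 10.45 in whole kidney. Its difference of -0.90 ± 0.39 (SE, adjusted p 0.207) rested on unirradiated duct replicate 2, the array with the highest GAPDH 3′ minus 5′ difference, whose part in it was not tested. The other unirradiated array was close to the irradiated ones.

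Among the nucleotide-binding B subunits, atp6v1ba read 9.15 and 8.85 in unirradiated ducts and 9.57 and 9.48 in whole kidney, a difference of -0.53 ± 0.18 (SE, adjusted p 0.14). Its relative atp6v1b2 stayed under the array medians in all groups. The C subunit genes atp6v1c1a and atp6v1c1b had differences of -0.61 and -0.29, and the central stalk gene atp6v1d one of -0.50. The A subunit genes, atp6v1aa and atp6v1ab, were not among the named probe sets.

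In the V0 sector, atp6v0ca encodes a subunit of the proton-carrying ring. It was bright on all arrays, at 10.47 and 10.72 in unirradiated ducts, 10.61 and 10.69 in irradiated ducts, and 10.37 and 11.03 in whole kidney. The groups overlapped and the unirradiated difference was -0.10 ± 0.25 (SE, adjusted p 0.827). A second probe set of the gene gave -1.07 (adjusted p 0.128), with 10.32 on unirradiated duct replicate 1 and 9.23 on replicate 2. The ring gene atp6v0cb had a difference of 0.46 and atp6v0d1, which couples the sectors, one of -0.43. The V0 a subunit genes (atp6v0a) were not among the named probe sets either.

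The accessory protein genes are needed for the assembly of the pump in mammals. For atp6ap1b the arrays gave 6.46 and 6.38 in unirradiated ducts, 6.70 and 6.72 in irradiated ducts, and 6.98 and 7.15 in whole kidney. The 3 groups did not overlap, and the difference of unirradiated ducts from kidney was -0.65 ± 0.15 (SE, adjusted p 0.0645). For atp6ap2, the prorenin receptor gene, it was -0.34 ± 0.16 (SE, adjusted p 0.236). The related atp6ap1la had the highest proton pump difference, 0.57 ± 0.22 (SE, adjusted p 0.172), with 4.61 and 5.12 in unirradiated ducts, 4.62 and 4.57 in irradiated ducts and 4.17 and 4.43 in whole kidney, all under the array medians.

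Other cell types moved with this comparison. Kidney of adult fish is also the site of blood formation. In unirradiated ducts 6 of 12 erythroid and 4 of 15 myeloid and macrophage markers were lower than in kidney, with none higher. Over all probe sets 2.99% were lower and 4.27% higher. The log2 of the summed level of the 12 erythroid markers was 13.81 and 14.33 in unirradiated ducts, 14.30 and 13.86 in irradiated ducts, and 15.48 and 15.14 in whole kidney. That of the 15 myeloid markers was 13.70 and 13.58, then 13.05 and 13.46, and in whole kidney 14.56 and 14.50. For the 8 proximal tubule markers it was 12.75 and 12.95, then 12.92 and 12.96, and in whole kidney 13.24 and 13.93. Their part in the proton pump differences was not tested.

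Lysosome genes and the proton pump's own partners gave further values, in a comparison where 4.27% of all probe sets were higher and 2.99% lower. Of 28 lysosome genes, 2 were lower in unirradiated ducts and none was higher, with a median of -0.26. They were lamp1a, which encodes a lysosomal membrane protein, at -1.51 ± 0.22 (SE, adjusted p 0.0222), and ctsz, a cathepsin gene, at -1.50 ± 0.29 (SE, adjusted p 0.0414). Of 15 assembly and partner genes of the proton pump, 2 were higher and none lower. The higher ones were aldoab, a glycolytic aldolase gene, at 2.52 ± 0.32 (SE, adjusted p 0.0147), and ca2, which encodes the cytosolic carbonic anhydrase that supplies protons in acid-secreting cells. The ca2 probe set read 12.26 and 12.15 in unirradiated ducts, 12.61 and 12.56 in irradiated ducts, and 10.67 and 10.45 in whole kidney, a difference of 1.64 ± 0.16 (SE, adjusted p 0.00845). Of 17 listed ionocyte and intercalated cell markers only 4 were measured. Of these, ca2 and rhcgb, which encodes an ammonia transporter, were higher. The listed transcription factor gene foxi1 read between 3.04 and 3.35 on all 6 arrays, under the array medians. Other listed regulators, foxi3a, foxi3b and gcm2, were not among the named probe sets.

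**Figure D3:**
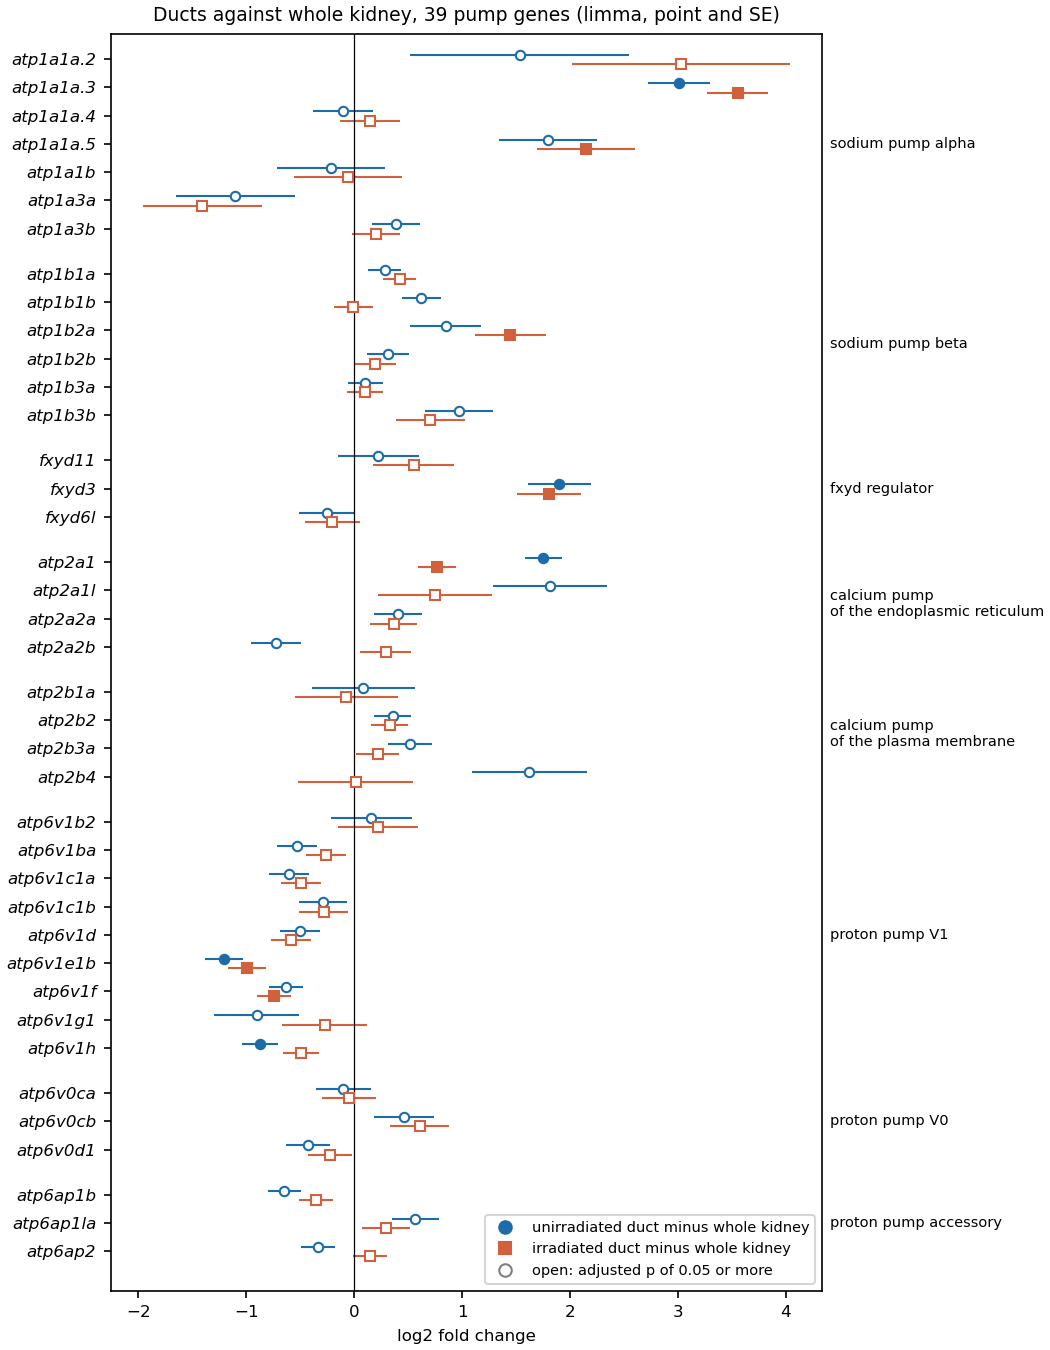
Log2 fold change (point) and standard error (bar) from limma for all 39 pump genes, grouped by subunit, for unirradiated ducts minus whole kidney (circles) and irradiated ducts minus whole kidney (squares), with filled symbols for an adjusted p under 0.05. The highest value is that of atp1a1a.3, at 3.01 and 3.55, and most V1 genes lie to the left of zero in both series, which share the whole kidney arrays.

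Calcium pump genes were few and mostly dim. The 4 genes of the endoplasmic reticulum pumps had a median log2 fold change of 1.08 in unirradiated ducts against kidney, and the 4 plasma membrane genes one of 0.44. The only call was atp2a1, the SERCA1 gene, which in vertebrates refills the calcium store of fast skeletal muscle. It read 5.30 and 5.57 in unirradiated ducts, 4.38 and 4.52 in irradiated ducts, and 3.63 and 3.74 in whole kidney, so every value was under the array medians. The groups did not overlap, and the unirradiated difference was 1.75 ± 0.17 (SE, n = 2 against 2), with a limma adjusted p of 0.00842. No fold is given, since no level was shown to be above background. The difference was 0.20 with an adjusted p of 0.818 after centring on the hybridisation controls.

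The related atp2a1l read 6.30 and 7.40 in unirradiated ducts, 6.45 and 5.12 in irradiated ducts, and 4.97 and 5.10 in whole kidney. Both kidney arrays lay below all duct arrays, though irradiated replicate 2 was nearly level with kidney replicate 2. That duct array and both kidney arrays were under the array medians. The unirradiated difference was 1.82 ± 0.53 (SE, adjusted p 0.0976). By contrast atp2a2b, a copy of the SERCA2 gene used in heart and in most other mammalian cells, gave 7.99 and 7.44 in unirradiated ducts, 8.58 and 8.88 in irradiated ducts, and 8.50 and 8.38 in whole kidney. Its unirradiated difference from kidney was -0.72 ± 0.24 (SE, adjusted p 0.122), the lowest of the calcium pump genes. The other copy, atp2a2a, was under the array medians in all groups.

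Skeletal muscle uses SERCA1, and its markers were measured on the same arrays. All 19 measured markers had a positive difference in unirradiated ducts against kidney, and 5 passed. Their median level was 6.70 and 7.99 in unirradiated ducts, 6.67 and 5.69 in irradiated ducts, and 5.40 and 4.97 in whole kidney. The log2 of their summed level was 11.74 and 12.89, then 11.82 and 11.28, and in whole kidney 9.97 and 10.13. On the unirradiated arrays 7 of the 19 were under the array median, on the irradiated arrays 8 and 10, and on the kidney arrays 15 and 14. Of 9 cardiac and smooth muscle markers, 5 were also higher in unirradiated ducts. Over all probe sets 4.27% were higher and 2.99% lower in this comparison. The part of muscle in the atp2a1 and atp2a1l values was not tested.

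**Figure D4:**
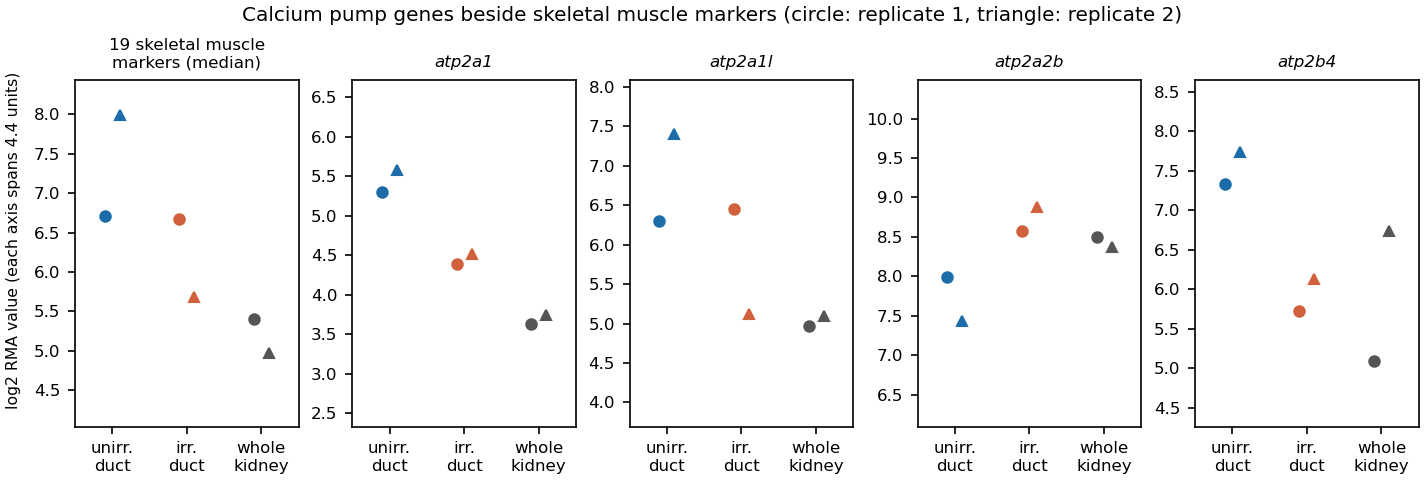
Log2 RMA values of 4 calcium pump genes beside the median of 19 skeletal muscle markers on each array, each axis spanning 4.4 log2 units, with circles for replicate 1 and triangles for replicate 2 of unirradiated ducts, irradiated ducts and whole kidney. The muscle median and atp2a1l are both highest on unirradiated replicate 2 (7.99 and 7.40), while atp2a2b is lowest there (7.44).

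Among the plasma membrane pumps, which expel calcium from the cell, atp2b4 read 7.33 and 7.74 in unirradiated ducts, 5.72 and 6.13 in irradiated ducts, and 5.09 and 6.74 in whole kidney. Both unirradiated arrays were higher than the rest, and the difference from kidney was 1.62 ± 0.53 (SE, adjusted p 0.124). The other probe sets of atp2b4 gave -1.07 (adjusted p 0.096) and 0.45, so the probe sets of this gene disagree in sign. The PMCA1 gene atp2b1a read 8.30 and 8.62 in unirradiated ducts, 8.36 and 8.25 in irradiated ducts, and 7.62 and 9.13 in whole kidney. Its groups overlapped and the difference was 0.08 ± 0.48 (SE, adjusted p 0.925), against -0.92 (adjusted p 0.09) and -0.34 for its other probe sets. The genes atp2b2 and atp2b3a stayed under the array medians.

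Of 28 calcium handling partner genes, 2 were higher and 3 lower in unirradiated ducts than in kidney, with a median of -0.12. Over all probe sets 4.27% were higher and 2.99% lower. The higher ones were s100w, of the S100 calcium-binding family, and casq2, a calsequestrin gene of the muscle calcium store, at 1.70 ± 0.35 (SE, adjusted p 0.0463). The lower ones were orai1a, which encodes the store-operated calcium channel, at -1.24 ± 0.19 (SE, adjusted p 0.0245), and the parvalbumin genes pvalb8 and pvalb6.

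Irradiated ducts were also compared with whole kidney. This comparison uses the same kidney arrays as the first, so its values stand beside the earlier ones and are not independent of them. In irradiated ducts 5 of 39 pump genes were higher than in kidney and 2 were lower, where 6.21% of all probe sets were higher and 4.24% lower. The higher genes were atp1a1a.3, atp1a1a.5, atp1b2a, fxyd3 and atp2a1, and the lower ones atp6v1e1b and atp6v1f. The subgroup medians were 0.31 for the sodium pump, 0.31 for the calcium pumps and -0.27 for the proton pump, beside -0.05 for all probe sets. Among genes with a mean log2 value of at least 6 they were 0.71 for 11 sodium pump genes and 0.0125 for 3 calcium pump genes. Over all probe sets with such a mean the median was -0.0131. The calcium pump median was 0.17 without irradiated duct replicate 2, 0.21 without whole kidney replicate 1 and 0.64 without whole kidney replicate 2. Centred on the hybridisation controls, the sodium and calcium pump medians were 0.16 and 0.15 and that of the proton pump was -0.43.

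The largest of these differences was again that of atp1a1a.3, at 3.55 ± 0.29 (SE, n = 2 against 2) or 11.7-fold, with a limma adjusted p of 0.00304, and it passed under all 11 distinct alternatives run. Its neighbour atp1a1a.5 was 4.43-fold higher than in kidney, at 2.15 ± 0.46 (SE, adjusted p 0.0399), but this call was lost under 7 of the 11, with an adjusted p of 0.0697 without whole kidney replicate 1 and 0.407 when centred on the hybridisation controls. The beta gene atp1b2a was 2.73-fold higher, at 1.45 ± 0.33 (SE, adjusted p 0.048), a call lost under 7 of the 11, among them the removal of whole kidney replicate 2 (adjusted p 0.0689). With the mean of all its probe sets the difference was 0.61 (adjusted p 0.0617). A second of its 4 probe sets gave 1.50 (adjusted p 0.0274), while the remaining ones gave -0.38 and -0.12. For fxyd3 the difference was 1.80 ± 0.29 (SE, adjusted p 0.0195), or 3.49-fold, and the call was lost under 4 of the 11.

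The atp1b1a gene did not pass with its chosen probe set, at 0.42 ± 0.15 (SE, adjusted p 0.153), but did with its other one, at 1.13 (adjusted p 0.0459). The copy atp1a1a.2, with its far apart replicates, had a difference of 3.03 ± 1.01 (SE, adjusted p 0.126). Of the proton pump, atp6v1e1b was 1.99-fold lower at -0.99 ± 0.18 (SE, adjusted p 0.0244) and atp6v1f 1.67-fold lower at -0.74 ± 0.16 (SE, adjusted p 0.039), while atp6v1h gave -0.49 ± 0.17 (SE, adjusted p 0.135). For atp2a1 the irradiated difference from kidney was 0.77 ± 0.17 (SE, adjusted p 0.0458), again with all values under the array medians. The calls were lost under 4 of 11 distinct alternatives for atp6v1e1b, 7 of 11 for atp6v1f and 7 of 10 for atp2a1.

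The count of 7 calls depended on the fit, as did the share of all probe sets called. With only irradiated ducts and kidney in the fit, 1 call was made. That is also the fit without either unirradiated array, and in it the share over all probe sets went from 10.5% to 5.05%. Of 15 proton pump partners, 2 were higher and 2 lower in irradiated ducts than in kidney, with log2 fold changes up to 2.63 in the list. Over all probe sets 6.21% were higher and 4.24% lower. The lower partners were vma21, an assembly factor gene, at -0.78 (limma adjusted p 0.0383) and oxr1b at -1.14 (adjusted p 0.0282). In irradiated ducts 3 of 19 skeletal muscle markers, 5 of 9 cardiac and smooth muscle markers and 1 of 15 myeloid markers were higher than in kidney, and 7 myeloid and 5 of 12 erythroid markers were lower. Their part in the pump gene values was not tested.

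The remaining comparison set the ducts of irradiated fish against those of unirradiated fish. By limma none of the 39 genes was higher and none lower in irradiated than in unirradiated ducts at an adjusted p under 0.05, where 0.0774% of all probe sets were higher and 0.0903% lower. At an unadjusted p under 0.05 there were 5, against 14.3% of all probe sets. These were atp2b4, atp2a1, atp2a2b, atp1b1b and atp6ap2. The adjusted p-values of the 39 genes ran from 0.134 upward. A p that misses the threshold does not show that the groups were alike, and with 2 pools in each group only differences well beyond the spread between pools could pass.

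**Figure D5:**
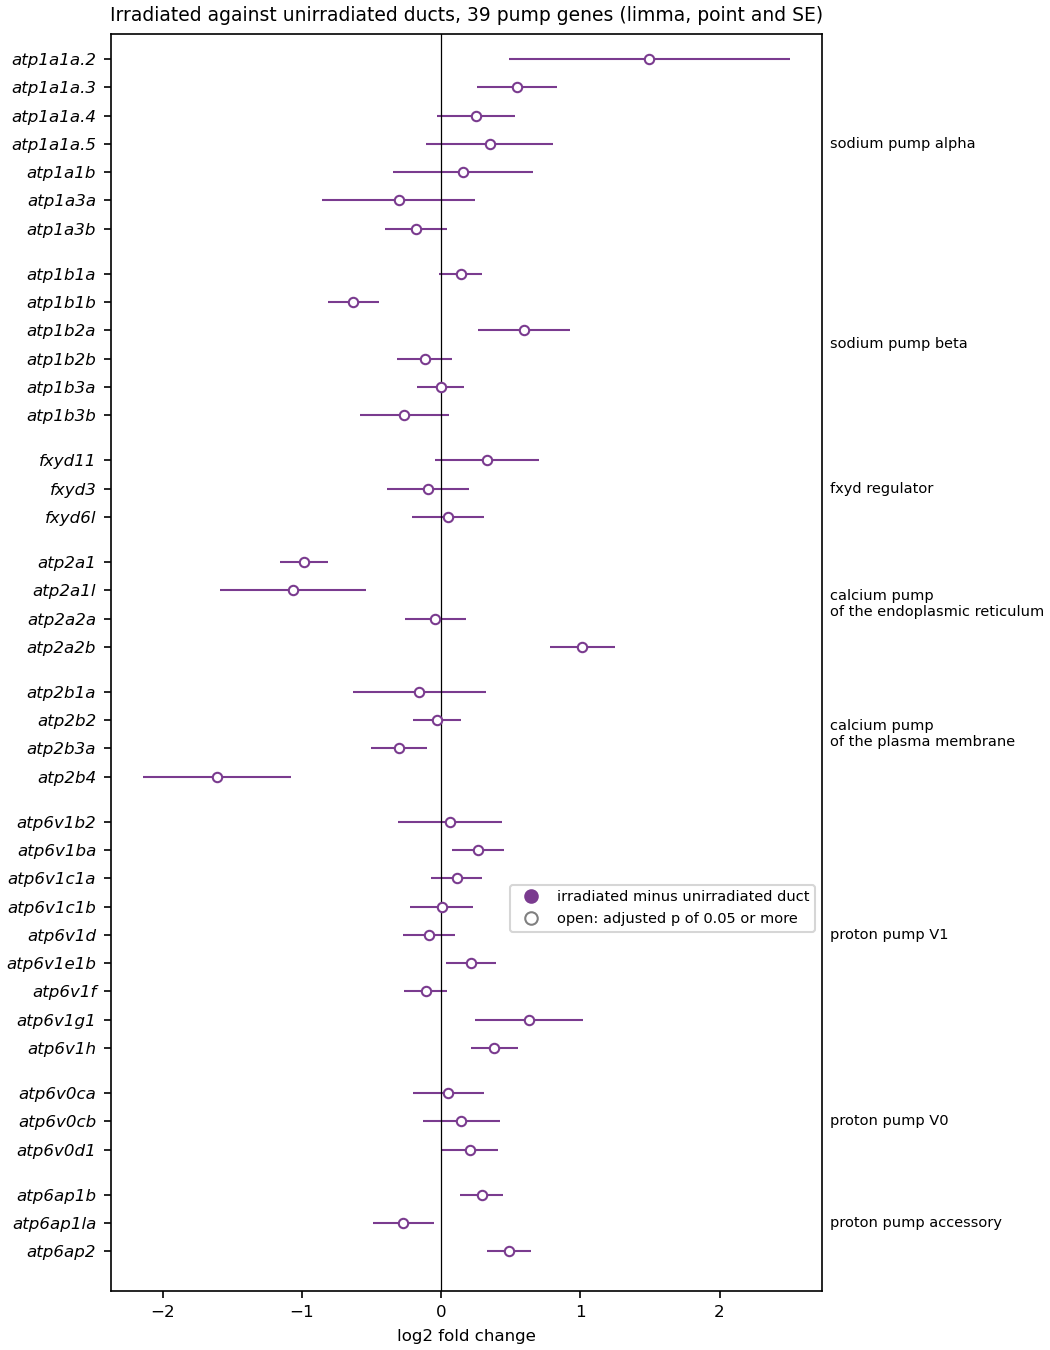
Log2 fold change (point) and standard error (bar) from limma for irradiated minus unirradiated ducts in all 39 pump genes, grouped by subunit; open symbols stand for an adjusted p of 0.05 or more, which holds for all. The values run from -1.61 for atp2b4 to 1.50 for atp1a1a.2.

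The subgroup medians between irradiated and unirradiated ducts were 0.09 for the sodium pump, -0.23 for the calcium pumps and 0.15 for the proton pump, beside -0.05 for all probe sets. Centring on the hybridisation controls raised every log2 fold change here by 1.39, so that the medians became 1.48, 1.16 and 1.54, and the sign of the calcium pump median turned. The sodium pump median was -0.05 without irradiated duct replicate 1 and 0.0001 without irradiated duct replicate 2. It was 0.0257 with the mean of all probe sets and 0.16 among genes with a mean of at least 6. With that filter the median was 0.20 for 13 proton pump genes and 0.0834 for all probe sets. The proton pump median was 0.0556 without unirradiated duct replicate 2, and the calcium pump median was -0.11 without that array and -0.35 without unirradiated duct replicate 1. Both irradiated arrays lay above both unirradiated arrays for 10 of the 39 genes and below them for 5, where 23.8% of all probe sets were wholly above and 33% wholly below. Of the 15 proton pump genes 6 were wholly above (atp6v0d1, atp6v1c1a, atp6v1e1b, atp6v1h, atp6ap1b and atp6ap2) and none wholly below.

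The lowest difference was that of atp2b4, at -1.61 ± 0.53 (SE, adjusted p 0.296). Both irradiated arrays were lower than both unirradiated ones by more than 1 log2 unit. Its other probe sets gave 0.57 and -0.76. The difference passed with only the duct groups in the fit (adjusted p 0.0427) and when either kidney array was left out, which gives the same fit. Next came atp2a1l, at -1.06 ± 0.53 (SE, adjusted p 0.426), with overlapping groups, and atp2a1, at -0.99 ± 0.17 (SE, adjusted p 0.134), with groups apart and all values under the array medians. With array weights atp2a1 had an adjusted p of 0.0401. All 19 skeletal muscle markers had a negative difference in the same comparison, with a median of -0.55, and none passed. Their part in the calcium pump values was not tested.

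On the upper side, atp1a1a.2 had a difference of 1.50 ± 1.01 (SE, adjusted p 0.543), which rested on irradiated replicate 1 at 10.00, while the other irradiated array at 6.84 lay between the unirradiated ones. Centred on the hybridisation controls, it had an adjusted p of 0.0471. The SERCA2 copy atp2a2b followed at 1.01 ± 0.24 (SE, adjusted p 0.206), with both irradiated arrays above both unirradiated ones. Then came atp6v1g1, at 0.63 ± 0.39 (SE, adjusted p 0.506), for which unirradiated replicate 2 stood apart and the other unirradiated array was level with the irradiated pair. The second probe set of atp6v0ca gave 1.18 (adjusted p 0.274), against 0.05 for the chosen one, and was also lowest on unirradiated replicate 2.

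The proton pump accessory gene atp6ap2 read 8.49 and 8.60 in unirradiated ducts, 9.09 and 8.97 in irradiated ducts, and 8.81 and 8.96 in whole kidney. The irradiated arrays were the highest, and the difference between the ducts was 0.48 ± 0.16 (SE, adjusted p 0.293). The dim beta gene atp1b1b read 5.03 and 5.25 in unirradiated ducts, 4.67 and 4.35 in irradiated ducts, and 4.51 and 4.52 in whole kidney. Its difference was -0.63 ± 0.18 (SE, adjusted p 0.263), with both irradiated arrays below both unirradiated ones. Of the other genes that passed against kidney, atp1a1a.3 had a difference of 0.54 ± 0.29 (SE, adjusted p 0.447), fxyd3 had -0.10 ± 0.29 (SE, adjusted p 0.906) and atp6v1e1b had 0.21 ± 0.18 (SE, adjusted p 0.619). For atp1b2a it was 0.60, for atp6v1h 0.38, for atp1a1a.5 0.35 and for atp6v1f -0.11.

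Between irradiated and unirradiated ducts only 0.168% of all probe sets passed, so counts of 0 in short lists say little about their genes. The counts were 0 of 17 sodium and potassium transport partners and 0 of 28 calcium handling partners, with medians of 0.02 and -0.21. They were 0 of 15 proton pump partners and 0 of 28 lysosome genes, with medians of 0.07 and 0.21. Of 15 myeloid and macrophage markers 3 were lower in irradiated ducts, as was 1 of 4 lymphoid markers.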

How the data were processed

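The deposited log2 values, 1 per probe set and array, were made by the authors using the affy package and RMA, per the submitters' processing notes (no versions given). Background correction, quantile normalisation and probe summary are parts of RMA. No value was transformed further, and scanner files were not used here. Arrays were grouped by title and design text, the irradiated group by a title prefix together with the text.

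Of 15617 probe sets, 115 controls were left out and 15502 tested: 10795 named 1 gene, 135 several and 4572 none. Symbols came from the platform table, updated through a current gene table (GRCz12tu), which lists 62 protein-coding genes under the rule. Groups were fitted with limma 3.58.1 in R 4.3.3, 1 mean per group, all 6 arrays together with 3 residual degrees of freedom, two-sided, adjusted by Benjamini-Hochberg over all probe sets. SE is the moderated standard error. The fit was tested on simulated data.

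The members, the 13 partner and marker lists and the tests were chosen with earlier results of these data known. Values on all arrays were given for members past the threshold, for extremes of each subgroup and for the brightest. From each list up to 4 genes were named, those past the threshold first. Other named genes, gata3 and foxi1 among them, were chosen after their values had been seen. The number of arrays limits the precision. Alternatives were a replicate block, 2 groups only, trend and robust priors, array weights, a filter on low values, control centring, the mean of probe sets and leaving out each array.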

Additional observations from a re-analysis of the deposited data

How the results depend on the processing

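In unirradiated ducts against kidney 5 pump genes passed, and 3 with only those groups in the fit; leaving out 1 array gave 0 to 11. In irradiated ducts against kidney the 7 calls became 4 with the replicate block, 1 with only those groups in the fit, 3 with array weights, 2 centred on hybridisation controls and 1 to 9 when 1 array was left out. The share of all probe sets called changed too. In unirradiated ducts against kidney it was 7.26% in the main fit and 2.72% with only those groups. In irradiated ducts against kidney it was 10.5% in the main fit and 8.99% with the replicate block. There it was 5.05% with only those groups, 8.13% with array weights and 1.3% with control centring. The counts of 0, 9 and 11 came from fits that leave 1 pool in a group, so nothing is read from them. Between the ducts 0 calls, beside 0.168% of all probe sets, became 1 with only the duct groups (1.4%), array weights (1.57%) or control centring (0.948%). The replicate block gave 0. Filtering at a mean of at least 6 moved the sodium pump median against kidney to 0.85 in unirradiated and 0.71 in irradiated ducts, and the calcium pump median in unirradiated ducts to 0.0847, with fewer genes tested. Control centring gave medians of -1.20, -1.09 and -2.05 (sodium, calcium and proton pump) in unirradiated ducts against kidney, 1.48, 1.16 and 1.54 between the ducts, and -0.43 for the proton pump in irradiated ducts against kidney, and shifted the last comparison's values by -0.16. The calcium pump median of irradiated ducts against kidney ran from 0.17 to 0.64 when 1 array was left out. Leaving out an array of the group not compared gives the same fit as using only the groups compared. Counting each fit once, 130 values of the 12 member calls were recomputed, of which 75 kept the call and 55 lost it. Fits that leave 1 pool in a group are among these, and the share of all probe sets called also changed with the fit. The cause of the lost calls was not tested. That 0 reversed is no check of direction. The replicate block, 2 groups only, trend and robust priors, array weights and the filter return the same log2 fold change by construction. Replicate numbers are shared by the groups, but the deviations of same-numbered arrays correlated at only -0.0976, 0.0633 and -0.0972, so they were not treated as pairs. With 2 pools in a group, and 10 of 39 genes under the array medians, small differences could not be resolved.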
